A study of Mus musculus with 24 samples.

Results

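The livers of mice that lack Thumpd1 (KO) were compared with the livers of wild-type (WT) mice by RNA-seq, across all genes with enough reads. The comparison used 8 of the 24 libraries of the series, 4 from WT liver (replicates 1 to 4) and 4 from KO liver (replicates 5 to 8), and the 12816 of 55450 listed genes that reached at least 1 CPM (counts per 1000000 counts of the library) in at least 4 of the 8. The KO line was made in C57BL/6N zygotes with CRISPR-Cas9 and a guide in each of exon 1 and exon 4 of Thumpd1. It was then kept on a C57BL/6 background, and the WT animals were littermates matched for age. Animals were 6 to 12 weeks old by the protocol, which allows either sex, and received no treatment. The labels do not say which deletion line was used, at what hour the livers were taken or whether the mice had eaten, and they do not tie a library to an animal. The p-values therefore measure the spread between libraries, which may be partly technical, although the paper counts 4 biological replicates for its RNA-seq.

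Thumpd1 is a tRNA-binding adapter of the acetyltransferase Nat10. Together they place N4-acetylcytidine on the tRNAs for serine and leucine. Faulty tRNAs and stalled ribosomes can activate the kinase Gcn2 (gene Eif2ak4), which phosphorylates the translation factor eIF2α and so begins the integrated stress response (ISR), in which the transcription factor Atf4 turns on genes of amino acid supply such as Asns. The liver in addition answers fasting, amino acid shortage and growth hormone through secreted proteins, among them Fgf21, Igfbp1 and Angptl4, and it runs a daily rhythm of clock genes that feeding can shift.

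The livers without Thumpd1 had more RNA of the amino acid stress genes Asns and Fgf21, of the insulin-like growth factor carriers Igfbp1 and Igfbp2 and of Lpl, and less of the clock genes Dbp, Nr1d1 and Per2, of the lipogenic genes Srebf1 and Fasn and of glutathione transferases of the Gstm family. Asns differed by 2.72 ± 0.44 on the log2 scale (SE, n = 4 per group, adjusted p = 0.0063), Igfbp1 by 2.03 ± 0.22 (adjusted p = 0.00098), Dbp by -2.77 ± 0.31 (adjusted p = 0.0010) and Srebf1 by -0.88 ± 0.09 (adjusted p = 0.00058), where a positive value is higher in KO. Most other ISR targets did not move with Asns and Fgf21, and most changes in the liver were small. Fgf21 reached 1 CPM in the KO libraries only. The value after ± beside a log2 change below is its SE from 4 libraries a group, and adjusted p-values are from limma-voom. In bulk tissue, fewer cells of a type and less RNA per cell cannot be told apart.

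The libraries held 18145725 to 37889615 counts, so that the 3 counts taken as the upper limit of a count of 0 came to between 0.0792 and 0.165 CPM, a limit for counting error only. The labelled tissue carried its markers: 16 hepatocyte genes summed to between 72761 and 117322 CPM in the liver libraries, against 225 to 1207 CPM in the cerebellum libraries and 40.7 to 52.0 CPM in the testis libraries. In all 8 liver libraries 4 genes of the Y chromosome summed to between 62.0 and 80.8 CPM. WT replicate 4 stood apart, with 9.33% of its counts on Gm42418, a repeat-rich locus that overlaps ribosomal RNA sequence, against 0.719% to 1.16% in the others. Structural noncoding RNAs (Gm42418, Gm26917, Rn7s1, Rn7s2, Rn7sk and Rpph1) took 17.5% to 31.0% of the counts, most in WT replicate 4, which lowers the CPM of other genes there. The fits are quantile normalized, so a log2 change need not equal the ratio of mean CPM. WT replicate 4 also held 2.59 CPM of Xist, against 0 to 0.132 CPM in the other liver libraries.

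Libraries with neighbouring numbers (1 and 2, 3 and 4, 5 and 6, 7 and 8) were compared for resemblance, which was clear in all of these pairs but WT 3 and 4. Deviations from the group mean, taken over 9758 genes, correlated best with the neighbour for each of the 8 libraries, with r of 0.12 for WT 1 and 2, -0.25 for WT 3 and 4, 0.21 for KO 5 and 6 and 0.46 for KO 7 and 8, against -0.70 to -0.34 for the other pairs within a group. Deviations from a mean of 4 libraries that share nothing else average an r of -0.33, so the value for WT 3 and 4 lies only a little above it, and their chi-square per gene (346) was the largest of any pair within a group. These are correlations across genes, which are not independent. The libraries were not copies of each other, since a chi-square per gene was 9.15 or more for every pair, where 1 would mean sampling noise alone. Nothing in the labels says that neighbours share an animal, so the main test counts 8 samples. A second fit took neighbours as a random block, with an estimated correlation of 0.48, and its p is called the blocked adjusted p. It is given for each called gene named below where it misses the threshold.

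**Figure D1:**
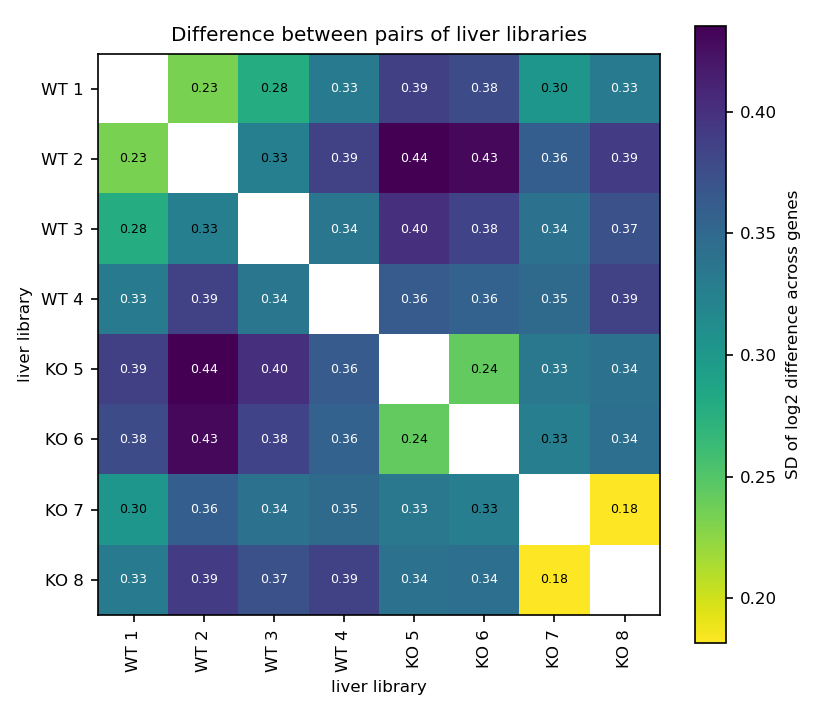
Standard deviation of the log2 difference between every pair of liver libraries over 9758 genes, with WT replicates 1 to 4 and KO replicates 5 to 8 on both axes. KO 7 and 8 differed least (0.18), followed by WT 1 and 2 (0.23) and KO 5 and 6 (0.24), whereas WT 3 and 4 differed by 0.34, as much as other pairs.

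In total, 757 genes passed an adjusted p of 0.05 (limma-voom with quantile normalization, Benjamini-Hochberg adjustment), which is 5.91% of the genes tested, and such genes are called in what follows. Of these, 357 rose in KO liver (2.79%) and 400 fell (3.12%). The changes were mostly small: the median size among called genes was 0.47 on the log2 scale, and 47 rises and 55 falls reached 1. Without a test, 1622 genes (12.7%) had WT and KO libraries that did not overlap in CPM, with 941 above WT (7.34%) and 681 below (5.31%). Of the 757, 661 did not overlap. With neighbours as a block, 274 genes remained called (2.14%), all of them among the 757, with 134 higher (1.05%) and 140 lower (1.09%). When the counts of neighbours were summed to 2 samples a group, 10 genes passed. Among these were Thumpd1, Hamp2, Lpl, Pltp, Srgap3, Lrtm1, Dpy19l3 and Sult5a1. Both neighbour fits were added after the data had been seen. Leaving out 1 library at a time gave 292 to 798 called genes, fewest without WT replicate 1, and 268 of the 757 were called in all 8 such fits. Where a called gene named below lost its call in one of them, the libraries are given beside it, as are the other fits that did not call it (edgeR, DESeq2, and limma-voom with TMM, with filterByExpr, unfiltered for low counts or quality-weighted). The median log2 change of all genes tested was -0.0031, so a list median of 0 is no shift against all genes, but 18 of the 30 list medians took both signs over the settings run. The medians that kept their sign in all of them were those for clock genes, lipogenesis, phase 2 enzymes, P450 enzymes, ribosomal proteins, aminoacyl-tRNA synthetases, urea cycle and amino acid breakdown, pericentral genes, iron, mTORC1, proliferation and immediate early genes. Percentages beside a list's rises and falls are shares of its tested members, to be read against 2.79% and 3.12% of all genes. The lists were chosen with earlier results of these data known, so a share above these is a description without a test. Whether counting used the strand is not given, and 214 of the 757 called genes, as 3951 of all 12816 tested, overlap a gene on the other strand, among those named below Srrm4, Hamp2, Enho, Meg3, Dbp, Srgap3, Tiam2, Slc6a9, Aars, Rpl15, Rpl5, Srebf1, Mid1ip1, Sds, Cyp2f2, Nr1d1, Tef, Cry2, Bhlhe40, Pltp, Fgg, Ftl1 and Oasl1, whose reads may be mixed with those of the partner.

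**Figure D2:**
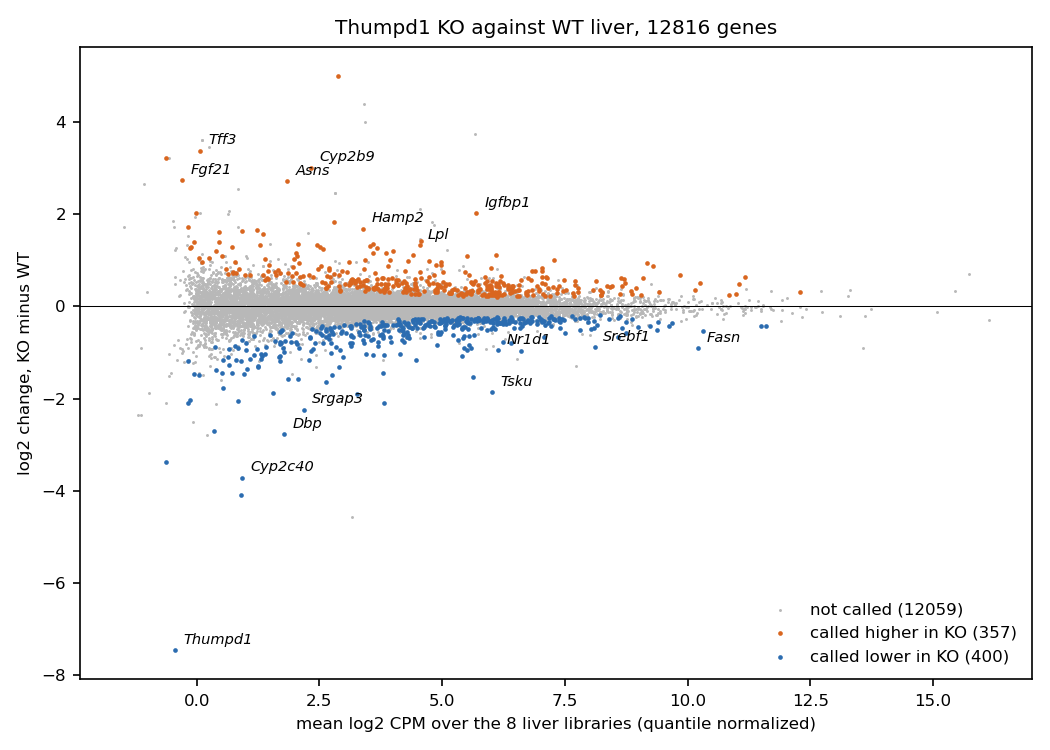
Log2 change of each of the 12816 tested genes, KO minus WT (vertical axis), against its mean log2 CPM over the 8 liver libraries (horizontal axis). The 357 called rises are orange, the 400 called falls blue and the other genes grey, and Thumpd1 lies lowest at -7.47.

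Thumpd1 itself (gene ENSMUSG00000030942.8, chr7:119715093-119720798 on the minus strand of mm10) was read at 9.74, 9.94, 10.1 and 9.19 CPM in WT replicates 1 to 4 and at 0, 0.0551, 0.106 and 0.0661 CPM in KO replicates 5 to 8. All KO libraries lay at or near the limit that a count of 0 allows, and so the libraries labelled KO held almost no Thumpd1 reads. The fitted log2 change of -7.47 ± 0.42 (SE, n = 4 per group, adjusted p = 2.8e-05) depends on the small count added before taking logarithms and is no measure of the fold. Nat10, the acetyltransferase that Thumpd1 serves, was not called, with 26.6 ± 1.10 CPM in WT and 24.8 ± 1.77 in KO (SD, n = 4, adjusted p = 0.56). Nor were the related THUMP-domain genes Thumpd2 and Thumpd3, at log2 changes of -0.18 ± 0.32 and 0.15 ± 0.14.

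Of the genes that sense and relay the ISR, 0 of 20 tested members rose and 0 fell by limma (median log2 change 0.02), while 5 had an unadjusted p under 0.05, edgeR called 0 and DESeq2 called 1. Of all 12816 genes, 2981 had an unadjusted p under 0.05, edgeR called 807 and DESeq2 called 1408. Such counts for this and other lists are to be read against these. Eif2ak4, which encodes Gcn2, was at 14.7, 13.7, 13.04 and 9.63 CPM in WT and 11.1, 14.9, 13.4 and 12.7 CPM in KO, and the groups overlapped. Eif2ak4 differed by 0.03 ± 0.11 (log2, SE, adjusted p = 0.90). Atf4 mRNA gave 106, 105, 62.4 and 56.3 CPM in WT and 82.1, 76.3, 76.9 and 76.2 CPM in KO. The WT libraries split by neighbours on either side of the KO libraries, so that its log2 change of 0.02 ± 0.16 (adjusted p = 0.97) had no stable sign. Without WT replicates 3 and 4 it was -0.32 (adjusted p = 0.041), and without WT replicates 1 and 2 it was 0.35 (adjusted p = 0.081), each a value that rests on 2 WT libraries. Atf4 is controlled largely at translation, which mRNA counts do not measure. Ddit3, the Atf4 partner and target also known as Chop, was at 2.85, 2.95, 2.02 and 1.78 CPM in WT and 3.41, 2.87, 2.93 and 3.40 in KO. Ddit3 differed by 0.34 ± 0.17 (log2, adjusted p = 0.27).

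Among ISR target genes, 2 of 34 tested members rose and 5 fell (5.88% and 14.7%, against 2.79% and 3.12% of all genes), with a median log2 change of -0.05 (without any 1 library, 2 to 3 rose and 2 to 5 fell). The 2 that rose did so by more than any other member. Asns, which makes asparagine from aspartate and glutamine, was at 2.54, 1.75, 0.778 and 0.778 CPM in WT and 13.3, 12.6, 6.57 and 7.67 CPM in KO, so that every KO library lay above every WT library. Asns changed by 2.72 ± 0.44 (log2, adjusted p = 0.0063, blocked adjusted p = 0.012). Fgf21, the liver hormone released on fasting and on amino acid shortage, was at 0.775, 0.777, 0.156 and 0.148 CPM in WT and 1.35, 2.42, 2.48 and 2.38 CPM in KO. Fgf21 changed by 2.74 ± 0.53 (log2, adjusted p = 0.014, blocked adjusted p = 0.039). It reached 1 CPM only in the 4 KO libraries, through which alone it passed the filter, so the filter and the test drew on the same difference. Both genes stayed called when any one library was left out.

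The called falls among the ISR targets were mostly carriers and enzymes of amino acid use. Slc6a9, a glycine carrier, fell from 62.9, 62.5, 47.1 and 41.8 CPM in WT to 26.6, 25.7, 38.4 and 33.6 CPM in KO. Slc6a9 changed by -0.72 ± 0.13 (log2, blocked adjusted p = 0.022). Xpot, which exports tRNA from the nucleus, fell less (log2 change -0.26 ± 0.05, adjusted p = 0.016), and its call was lost in the block fit (blocked adjusted p = 0.082) and without either WT 1 or 2 (adjusted p = 0.051). Gpt2, Slc1a4 and Slc3a2 fell as well, with log2 changes of -0.34 ± 0.07, -0.40 ± 0.09 and -0.34 ± 0.08. Gpt2 kept its call in the block fit but lost it without either WT 3 or KO 8 (adjusted p from 0.052 to 0.053). Slc1a4 and Slc3a2 lost it in the block fit (blocked adjusted p = 0.17 and 0.14) and, for Slc1a4, without any 1 of WT 1, 2 or 3 or KO 6 or 8 (adjusted p from 0.050 to 0.085) and in the unfiltered fit (adjusted p = 0.054), and for Slc3a2, without any 1 of WT 1, 2 or 3 or KO 5 or 6 (adjusted p from 0.075 to 0.11) and in the unfiltered fit (adjusted p = 0.073). The remaining 27 members were not called, among them the pseudokinase Trib3 (log2 change -0.36 ± 0.22), the glutathione-degrading Chac1 (-0.19 ± 0.36), the stress hormone gene Gdf15 (0.39 ± 0.28) and the transcription factor gene Atf5 (0.21 ± 0.06).

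Because Asns and Fgf21 were the called rises of this list, their promoters are shown, from 250 bases before to 50 bases after the RefSeq start (GRCm38.p6, the assembly of mm10), 5′ to 3′ on the strand of the gene. The capitals mark TGATGNAAN, the core of the C/EBP-ATF response element that Atf4 can bind, searched on both strands. The Asns window is chr6:7693160-7693459 and the Fgf21 window chr7:45615441-45615740, both on the minus strand.
Asns: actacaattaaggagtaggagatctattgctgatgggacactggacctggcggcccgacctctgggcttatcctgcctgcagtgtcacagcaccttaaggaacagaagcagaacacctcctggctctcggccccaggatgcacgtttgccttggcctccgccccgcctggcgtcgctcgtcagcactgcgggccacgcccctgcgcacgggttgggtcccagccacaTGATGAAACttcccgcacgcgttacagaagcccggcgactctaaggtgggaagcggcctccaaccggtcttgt
Fgf21: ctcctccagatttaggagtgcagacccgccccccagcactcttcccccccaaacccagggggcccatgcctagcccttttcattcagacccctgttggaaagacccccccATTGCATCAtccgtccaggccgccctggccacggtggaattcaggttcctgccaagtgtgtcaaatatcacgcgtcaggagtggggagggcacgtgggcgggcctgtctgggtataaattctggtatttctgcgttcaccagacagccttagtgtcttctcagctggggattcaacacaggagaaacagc
In Asns the match begins 23 bases before the start and reads along the gene, and in Fgf21 it begins 140 bases before the start and lies on the opposite strand. Of the 36 ISR targets with a RefSeq promoter, 11 held such a match (30.6%), against 4.50% of the 27025 genes with a promoter. Those 11 include Trib3, Chac1, Slc1a4, Vldlr and Jdp2, of which Slc1a4 fell and the others were not called, so the letters were present in promoters whether or not the gene was called. A match is a description of letters and says nothing on binding in these livers.

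Among aminoacyl-tRNA synthetases, 0 of 23 tested members rose and 2 fell (8.7% of the list), with a median log2 change of -0.06. Qars and Aars, the synthetases for glutamine and alanine, fell from 36.3 ± 2.58 to 29.5 ± 1.04 CPM and from 249.98 ± 29.6 to 203 ± 18.8 CPM (SD, n = 4), with log2 changes of -0.28 ± 0.06 and -0.26 ± 0.06. Neither kept its call in the block fit (blocked adjusted p = 0.14 and 0.10). Qars was not called without any 1 of WT 1, 2 or 3 or KO 5, 7 or 8 (adjusted p from 0.053 to 0.085) and in the unfiltered fit (adjusted p = 0.056), and Aars was not called without any 1 of WT 1, 2 or 3 or KO 5 or 6 (adjusted p from 0.065 to 0.099). Among cytosolic ribosomal proteins, 8 of 79 tested members rose and 0 fell (10.1% of the list, against 2.79% of all genes), with a median log2 change of 0.12 (without any 1 library, 1 to 7 rose and 0 fell), and 66 of the 79 lay above 0. The leading members were Rpl39 (log2 change 0.51 ± 0.11), Rpl5 (0.46 ± 0.11), Rpl17 (0.34 ± 0.06) and Rpl15 (0.25 ± 0.06), and 1 member, Rpl17, stayed called with the block (blocked adjusted p = 0.041, against 0.17 for Rpl39, 0.079 for Rpl5 and 0.15 for Rpl15). Rpl39 lost its call without any 1 of WT 1 or 2 or KO 8 (adjusted p from 0.060 to 0.079), Rpl15 without any 1 of WT 1 or 2 or KO 6 or 8 (adjusted p from 0.067 to 0.097) and in the edgeR fit (adjusted p = 0.051) and Rpl5 without any 1 of WT 1, 2 or 3 or KO 5 or 6 (adjusted p from 0.075 to 0.11) and in the unfiltered fit (adjusted p = 0.077). Ribosomal protein genes have many near-identical pseudogenes, so their counts depend on how reads were divided.

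Among the chaperones of the endoplasmic reticulum, 0 of 20 tested members rose and 1 fell (5% of the list, against 3.12% of all genes), with a median log2 change of -0.04. The member that fell was Hyou1, at 351, 339, 294 and 272 CPM in WT and 226, 222, 252 and 253 CPM in KO. Hyou1 changed by -0.32 ± 0.05 (log2, blocked adjusted p = 0.031). Among cytosolic heat shock chaperones, 0 of 16 tested members rose and 1 fell (6.25% of the list), with a median log2 change of -0.08. The list's median level relative to the WT mean was 0.19 and 0.13 log2 units in KO 5 and 6. It was -0.21 and -0.19 in KO 7 and 8, against -0.095 to 0.019 in WT. It was Hsph1 that fell (log2 change -0.61 ± 0.15, adjusted p = 0.037, blocked adjusted p = 0.10), a call lost without any 1 of WT 1, 2 or 4 or KO 6, 7 or 8 (adjusted p from 0.050 to 0.11) and in the unfiltered fit (adjusted p = 0.073). Of the 13 protein genes of mitochondrial DNA, 0 rose and 0 fell by limma, while 0 had an unadjusted p under 0.05, edgeR called 0 and DESeq2 called 0.

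Ranked by log2 change, 12 rises and 12 falls were taken from called genes that averaged 1 log2 CPM or more and whose groups did not overlap, and they spanned several functions. After Asns and Igfbp1, the rises included Srrm4, a splicing factor best known from neurons, at 3.26, 3.21, 3.86 and 4.56 CPM in WT and 8.82, 11.5, 16.8 and 15.9 in KO. Srrm4 changed by 1.84 ± 0.23 (log2, adjusted p = 0.0020). Hamp2, a relative of the iron hormone hepcidin, was at 6.05, 6.29, 5.23 and 5.30 CPM in WT and 18.8, 21.3, 16.8 and 19.1 CPM in KO, with little spread within either group. Hamp2 changed by 1.69 ± 0.11 (log2, adjusted p = 6.2e-05). Lpl, lipoprotein lipase, which is low in adult liver, rose from 16.3, 15.7, 14.1 and 12.7 CPM to 33.5, 42.5, 34.8 and 36.1 CPM. Lpl changed by 1.33 ± 0.09 (log2, adjusted p = 6.2e-05). Adipocytes and muscle also make Lpl, and 11 marker genes of those tissues summed to 2.76, 2.26, 13.1 and 12.3 CPM in KO replicates 5 to 8 and to 12.4, 12.2, 2.74 and 3.74 CPM in WT replicates 1 to 4, so that the groups overlapped. Their part in the change of Lpl was not tested.

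Further rises were the protease inhibitor gene Serpinb6b (1.66 ± 0.16), the melatonin receptor gene Mtnr1a (1.58 ± 0.20), Serpina7 for thyroxine-binding globulin (1.43 ± 0.25), Enho for the secreted peptide adropin (1.36 ± 0.24), the transcription factor gene Maff (1.34 ± 0.18) and the imprinted noncoding RNA Meg3 (1.34 ± 0.18), all on the log2 scale and all still called with the block. Meg3 was at 3.29, 3.53, 3.39 and 3.56 CPM in WT and 6.76, 6.78, 10.5 and 11.1 CPM in KO. Named after their values were seen, Rian from the same imprinted cluster rose by 1.29 ± 0.20 and the imprinted gene Peg10 rose by 1.02 ± 0.14 (adjusted p = 0.0048 and 0.0031). Cyp2b9 led the 12 rises, at 3.02 ± 0.77, but its KO libraries split by neighbours: 1.36, 0.874, 3.11 and 2.93 CPM in WT and 6.71, 5.90, 26.1 and 29.6 CPM in KO. Its call (adjusted p = 0.045) was lost with the block (blocked adjusted p = 0.067) and without any 1 of WT 1, 2, 3 or 4 or KO 7 or 8 (adjusted p from 0.064 to 0.12) and in the unfiltered fit (adjusted p = 0.079).

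**Figure D3:**
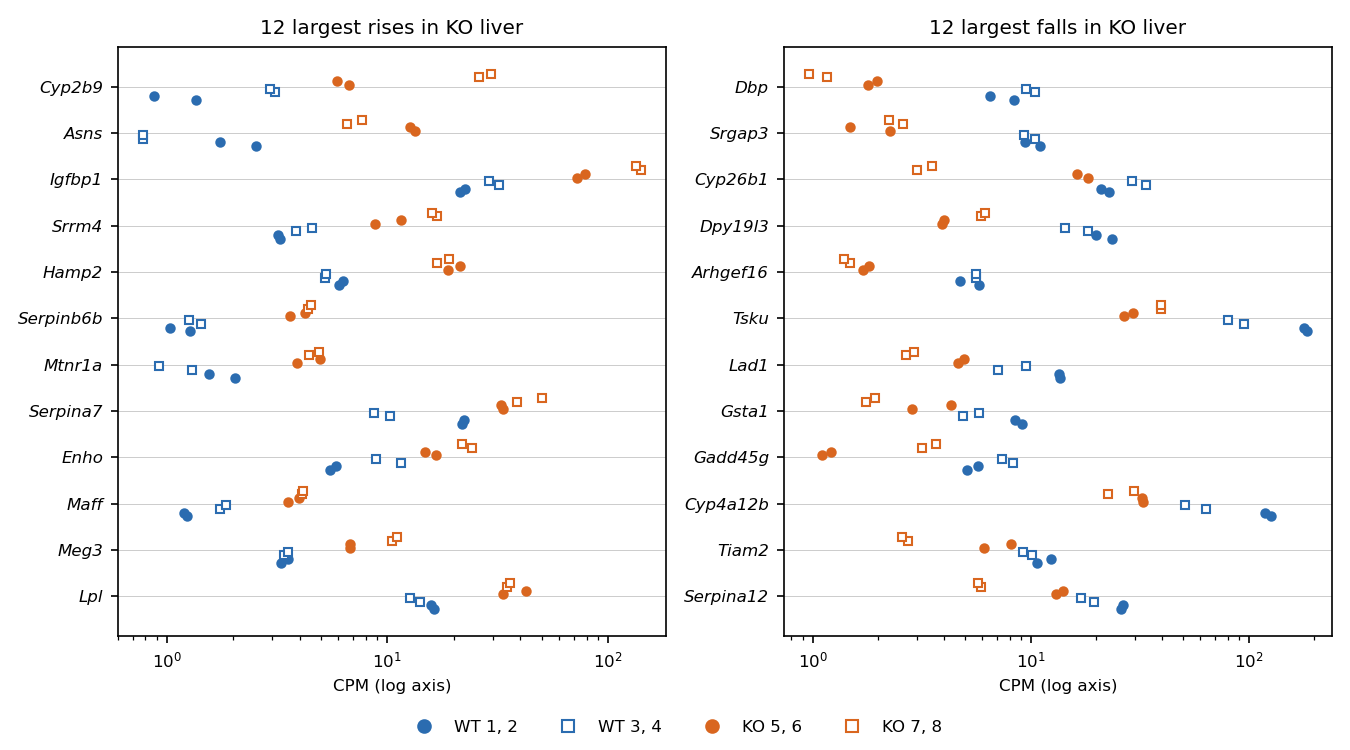
CPM (log axis) of the 12 leading rises (left) and 12 leading falls (right) by log2 change, 1 point per library, with WT in blue, KO in orange, filled circles for replicates 1, 2, 5 and 6 and open squares for 3, 4, 7 and 8. In each gene the WT and KO points do not overlap, as the choice of genes requires, and in Cyp2b9 and Cyp26b1 KO replicates 7 and 8 lie far from 5 and 6.

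Of the falls, Dbp is described with the clock genes. Srgap3, a regulator of the actin cytoskeleton, fell from 11.01, 9.39, 10.5 and 9.34 CPM in WT to 2.25, 1.49, 2.59 and 2.25 CPM in KO. Srgap3 changed by -2.24 ± 0.16 (log2, adjusted p = 6.2e-05). Dpy19l3, which attaches mannose to tryptophan in secreted proteins, fell from 23.5, 19.98, 18.3 and 14.4 CPM to 3.91, 4.02, 5.94 and 6.18 CPM. Dpy19l3 changed by -1.89 ± 0.16 (log2, adjusted p = 0.00030). Both were also called when neighbours were summed. Arhgef16, an activator of small GTPases, Lad1, an anchoring filament protein, and Tiam2, another such activator, fell as well, with log2 changes of -1.87 ± 0.17, -1.64 ± 0.27 and -1.49 ± 0.28. Tiam2 missed the threshold without either KO 7 or 8 (adjusted p from 0.052 to 0.053) and in the edgeR and DESeq2 fits (adjusted p from 0.058 to 0.068). Cyp26b1, which clears retinoic acid, was at 22.9, 21.1, 33.9 and 29.2 CPM in WT and 18.2, 16.4, 3.01 and 3.54 CPM in KO, so that its log2 change of -2.10 ± 0.49 came mostly from KO replicates 7 and 8. It was not called without any 1 of WT 1, 2, 3 or 4 or KO 7 or 8 (adjusted p from 0.052 to 0.11) and in the edgeR, DESeq2 and unfiltered fits (adjusted p from 0.060 to 0.20), and in DESeq2 the log2 change was -1.35. Gadd45g, a stress-induced gene, fell (log2 change -1.57 ± 0.34, blocked adjusted p = 0.046) and was not called without any 1 of WT 3 or KO 5 or 6 (adjusted p from 0.052 to 0.055).

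Insulin-like growth factor (IGF) is carried in blood by binding proteins, some of which the liver secretes. Among genes of the growth hormone and IGF axis, 3 of 24 tested members rose and 3 fell (12.5% and 12.5%, against 2.79% and 3.12% of all genes), with a median log2 change of 0.03 (without any 1 library, 2 to 3 rose and 1 to 3 fell), and the called members were mostly carriers. The list's median level relative to the WT mean was -0.22 and -0.21 log2 units in KO 5 and 6. It was 0.15 and 0.10 in KO 7 and 8, against -0.071 to 0.099 in WT. Igfbp1, the binding protein that fasting and amino acid shortage raise, was at 21.2, 22.4, 32.01 and 28.9 CPM in WT and 72.2, 78.9, 141 and 135 CPM in KO. Igfbp1 changed by 2.03 ± 0.22 (log2, adjusted p = 0.00098, blocked adjusted p = 0.0012). Igfbp2 was at 361, 368, 506 and 463 CPM in WT and 745, 710.2, 923 and 857 CPM in KO. Igfbp2 changed by 0.95 ± 0.15 (log2, adjusted p = 0.0059, blocked adjusted p = 0.0071). For both genes all KO libraries lay above all WT libraries, and KO replicates 7 and 8 were the highest.

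The partners of the large circulating IGF complex went the other way. Igfbp3 fell from 15.4, 16.4, 20.1 and 15.6 CPM to 10.2, 9.15, 9.66 and 10.5 CPM. Igfbp3 changed by -0.77 ± 0.12 (log2, blocked adjusted p = 0.027). Igfals, its acid-labile subunit, was at 142, 147, 104 and 75.3 CPM in WT and 49.4, 50.4, 79.2 and 77.1 CPM in KO, groups that overlapped (log2 change -0.80 ± 0.18, adjusted p = 0.029, blocked adjusted p = 0.052), and its call was lost without any 1 of WT 1, 2 or 3 or KO 5 or 6 (adjusted p from 0.053 to 0.091) and in the unfiltered fit (adjusted p = 0.059). Socs3, an inhibitor of cytokine signalling, fell (log2 change -0.95 ± 0.22, blocked adjusted p = 0.090) but lost its call without any 1 of WT 1, 3 or 4 or KO 5, 6 or 8 (adjusted p from 0.054 to 0.074) and in the unfiltered fit (adjusted p = 0.062). Irs2, an adapter of the insulin receptor, rose by 0.83 ± 0.22 (blocked adjusted p = 0.071) and lost its call without any 1 of WT 1, 2 or 3 or KO 6, 7 or 8 (adjusted p from 0.054 to 0.14) and in the edgeR, filterByExpr and unfiltered fits (adjusted p from 0.051 to 0.083). Igf1 was not called, at 318, 314, 236 and 230.5 CPM in WT and 208, 208, 237 and 255 CPM in KO. Igf1 differed by -0.19 ± 0.08 (log2, adjusted p = 0.19).

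Among secreted proteins tied to fasting and stress, 4 of 16 tested members rose and 2 fell (25% and 12.5%, against 2.79% and 3.12% of all genes), with a median log2 change of 0.20 (without any 1 library, 3 to 4 rose and 1 to 2 fell). Over all settings run that median lay between -0.0062 and 0.44. With the block 3 rises and 1 fall stayed called. Beside Fgf21 and Igfbp1, Angptl4, an inhibitor of lipoprotein lipase, rose from 51.3, 54.6, 46.5 and 36.97 CPM to 75.9, 73.8, 131 and 130.2 CPM. Angptl4 changed by 1.12 ± 0.17 (log2, blocked adjusted p = 0.0071). Tsku, a secreted protein of the fed liver, fell from 185, 178, 95.1 and 80.4 CPM to 26.7, 29.5, 39.5 and 39.7 CPM (log2 change -1.86 ± 0.23, blocked adjusted p = 0.0022), the larger of the 2 falls. Inhba, a subunit of activin, rose by 0.56 ± 0.11 without a block call (blocked adjusted p = 0.088), and its call was lost without WT 1 (adjusted p = 0.052). Of the fuel genes of fasting, a list for fat oxidation, ketone bodies and glucose production, 5 of 37 tested members rose and 1 fell (13.5% and 2.7%), with a median log2 change of 0.04 (without any 1 library, 0 to 4 rose and 1 fell). Cyp4a31 and Cyp4a32, which oxidize fatty acids, rose by 1.29 ± 0.25 and 1.11 ± 0.22, and both missed the threshold without WT replicate 1 (adjusted p = 0.055 and 0.056). Creb3l3, a transcription factor of fasting, rose by 0.24 ± 0.05 (blocked adjusted p = 0.082), a call lost without any 1 of WT 1, 2 or 3 (adjusted p from 0.052 to 0.062) and in the edgeR and TMM fits (adjusted p from 0.071 to 0.093). Plin2, which coats lipid droplets, and Ppargc1a, a coactivator of fasting, rose by 0.28 ± 0.07 and 0.67 ± 0.17, neither with the block (blocked adjusted p = 0.099 and 0.12), and Plin2 lost its call without any 1 of WT 1, 3 or 4 or KO 5, 6, 7 or 8 (adjusted p from 0.062 to 0.10) and in the edgeR, TMM and quality-weighted fits (adjusted p from 0.052 to 0.10), and Ppargc1a without any 1 of WT 1, 2 or 3 or KO 6, 7 or 8 (adjusted p from 0.053 to 0.13) and in the edgeR and unfiltered fits (adjusted p from 0.051 to 0.084). Pcx, pyruvate carboxylase, which feeds glucose production, fell from 704 ± 69.9 to 523 ± 65.8 CPM (SD, n = 4, log2 change -0.42 ± 0.06).

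The called members of the lipogenesis and cholesterol lists all fell. Among lipogenesis genes, 0 of 25 tested members rose and 5 fell (20% of the list, against 3.12% of all genes), with a median log2 change of -0.25 (without any 1 library, 0 rose and 3 to 6 fell), and 20 of the 25 lay below 0. Srebf1, the transcription factor gene that drives fatty acid synthesis, was at 459, 460.4, 328 and 301 CPM in WT and 203, 188, 214 and 198 CPM in KO. Srebf1 changed by -0.88 ± 0.09 (log2, adjusted p = 0.00058, blocked adjusted p = 0.0014). Fasn, fatty acid synthase, was at 1621, 1542, 1805 and 1597 CPM in WT and 1000.5, 1016, 755 and 706 CPM in KO. Fasn changed by -0.91 ± 0.15 (log2, blocked adjusted p = 0.011). Mid1ip1, an activator of acetyl-CoA carboxylase, fell from 68.5, 68.1, 58.5 and 52.01 CPM to 36.02, 33.9, 24.9 and 23.8 CPM. Mid1ip1 changed by -1.08 ± 0.14 (log2, blocked adjusted p = 0.0022). In all 3 genes every KO library lay below every WT library. Slc25a1, the mitochondrial citrate carrier, fell without a block call (log2 change -0.25 ± 0.06, blocked adjusted p = 0.14), and its call was lost without any 1 of WT 1, 2 or 3 or KO 6, 7 or 8 (adjusted p from 0.062 to 0.12). Agpat2, an acyltransferase of triglyceride synthesis, was much the same (log2 change -0.27 ± 0.07, blocked adjusted p = 0.17), its call being lost without any 1 of WT 1, 2 or 3 or KO 5, 6, 7 or 8 (adjusted p from 0.065 to 0.12) and in the unfiltered fit (adjusted p = 0.056).

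Several core lipogenic genes did not pass the test. Scd1, the desaturase, Acly, which makes acetyl-CoA, and Acaca, which makes malonyl-CoA, had log2 changes of -0.20 ± 0.23, -0.10 ± 0.12 and -0.13 ± 0.08. Thrsp, a regulator of fat synthesis, was at 145, 149.9, 131 and 116 CPM in WT and 102, 109.7, 38.1 and 35.7 CPM in KO, so that every KO library was below every WT library, yet it was not called. Thrsp differed by -1.13 ± 0.34 (log2, adjusted p = 0.075). KO replicates 5 and 6 also differed from 7 and 8 in the list's median level, though not in Srebf1 or Slc25a1: it was 0.14 and 0.12 log2 units below the WT mean in KO 5 and 6 and 0.32 and 0.37 below it in KO 7 and 8, against -0.067 to 0.060 in the WT libraries.

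Among genes of cholesterol synthesis and uptake, 0 of 25 tested members rose and 4 fell (16% of the list, against 3.12% of all genes), with a median log2 change of -0.17 (without any 1 library, 0 rose and 3 to 4 fell). Among the called falls were Mvd, a decarboxylase of the mevalonate pathway (26.01, 25.3, 27.2 and 22.04 CPM in WT, 14.7, 15.2, 11.7 and 9.35 CPM in KO, log2 change -1.03 ± 0.14, blocked adjusted p = 0.0080), and Hsd17b7, an enzyme of sterol synthesis (log2 change -0.47 ± 0.11). Hsd17b7 was not called with the block (blocked adjusted p = 0.070) or without any 1 of WT 1, 3 or 4 or KO 7 or 8 (adjusted p from 0.061 to 0.093) and in the unfiltered fit (adjusted p = 0.056). For the list as a whole KO replicates 5 and 6 differed from 7 and 8, since its median level was 0.028 and 0.040 log2 units above the WT mean in KO replicates 5 and 6 and 0.36 below it in both 7 and 8. Pltp, the phospholipid transfer protein of plasma, belonged to no list and was chosen after its values were seen: it fell from 152, 148, 139 and 112 CPM to 67.9, 72.1, 69.7 and 68.2 CPM. Pltp changed by -0.96 ± 0.07 (log2, adjusted p = 6.2e-05). Of 23 bile acid genes, 0 rose and 0 fell by limma, while edgeR called 0 and DESeq2 called 1. Of these 23, 6 had an unadjusted p under 0.05 (against 2981 of all 12816 genes).

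All called members of the clock list fell. Clock genes form a daily loop in which Clock and Arntl turn on Per, Cry and Nr1d1 genes, whose products turn the loop down. Among them, 0 of 22 tested members rose and 7 fell (31.8% of the list, against 3.12% of all genes), with a median log2 change of -0.27 (without any 1 library, 0 to 1 rose and 7 fell), and 6 of the 7 kept their call with the block. Dbp, an output factor of the clock that varies widely over the day, was at 8.37, 6.48, 10.5 and 9.52 CPM in WT and 1.80, 1.98, 1.16 and 0.958 CPM in KO. Dbp changed by -2.77 ± 0.31 (log2, adjusted p = 0.0010, blocked adjusted p = 0.0022). Sphk2, which overlaps Dbp on the other strand, was not called. Sphk2 differed by -0.34 ± 0.11 (log2, adjusted p = 0.094). Nr1d1, the repressor Rev-erb alpha, fell from 104, 104, 105 and 84.6 CPM to 61.7, 60.9, 41.5 and 41.9 CPM (log2 change -0.95 ± 0.14, blocked adjusted p = 0.0055), while Thra, which overlaps it on the other strand, did not pass the test (log2 change 0.03 ± 0.07). Per2 was at 11.2, 10.2, 8.52 and 7.41 CPM in WT and 4.71, 5.46, 4.25 and 4.73 CPM in KO. Per2 changed by -1.01 ± 0.13 (log2, blocked adjusted p = 0.010).

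Tef, an output factor related to Dbp, and the repressors Cry2, Bhlhe40 and Per3 fell with log2 changes of -0.44 ± 0.07, -0.41 ± 0.07, -0.84 ± 0.16 and -0.98 ± 0.17 and with blocked adjusted p of 0.033, 0.044, 0.025 and 0.088. The activators were not called: Arntl gave 25.5, 23.6, 22.3 and 20.9 CPM in WT and 23.7, 22.3, 34.4 and 36.2 CPM in KO, and Npas2 10.6, 10.04, 9.89 and 8.37 CPM in WT and 10.5, 9.31, 18.9 and 17.8 CPM in KO. In both, KO replicates 7 and 8 were the highest libraries, whereas 5 and 6 lay among the WT values. Per1, a clock gene that also answers hormones within hours, was at 7.44, 6.18, 2.92 and 3.11 CPM in WT and 2.86, 3.20, 16.2 and 15.5 CPM in KO, so that the 2 highest libraries and the lowest were all KO. Per1 differed by 0.85 ± 0.57 (log2, adjusted p = 0.41). The hour at which each liver was taken is not given, so genotype and hour cannot be told apart for this list. Of the 20 clock genes with a RefSeq promoter, 7 held the E-box CACGTG (35.0%, against 8.09% of all genes with a promoter) and 3 the D-box TTATGNAA (15.0%, against 3.99%), both searched on either strand. Tef was the called gene with an E-box and Per3 the called gene with a D-box.

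**Figure D4:**
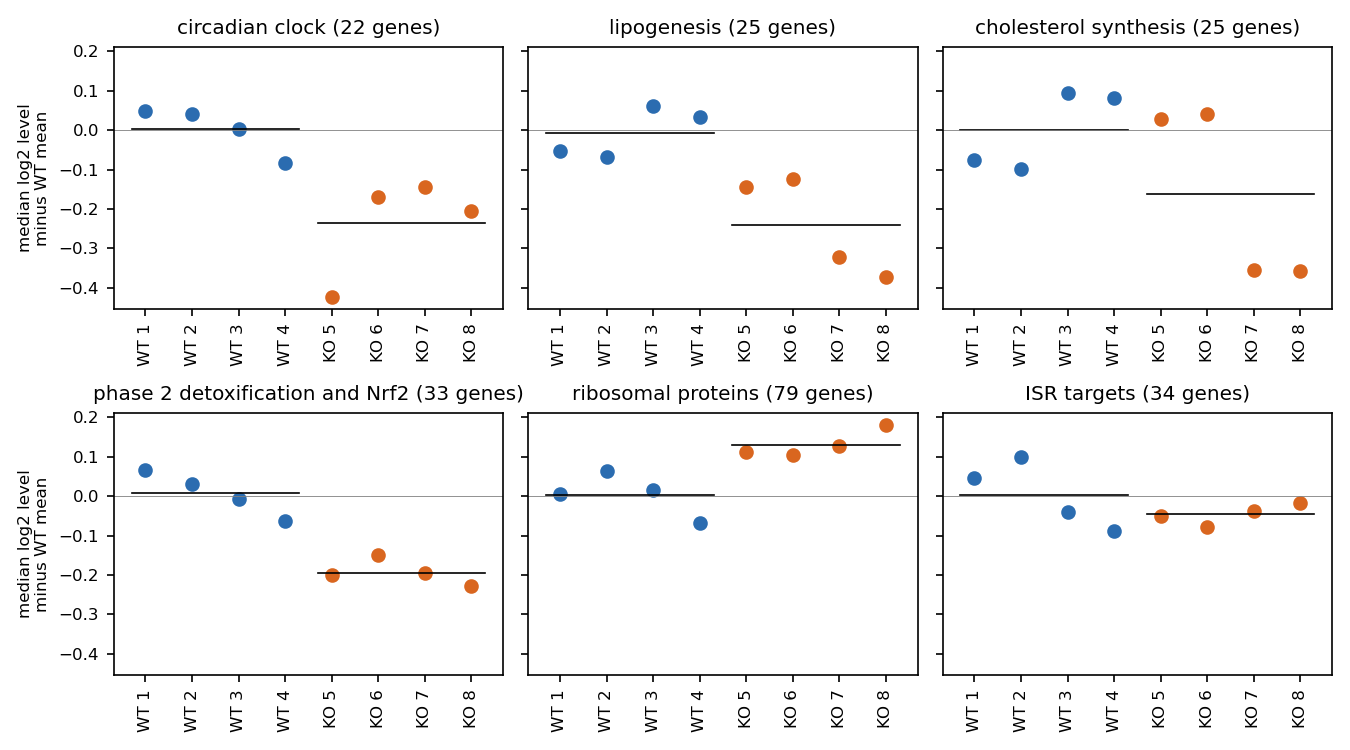
Median level of the tested members of 6 gene lists in each liver library, in log2 units relative to each gene's WT mean, with WT libraries in blue, KO libraries in orange and a line at the mean of each group's 4 values. KO libraries lie below all WT libraries for the clock, lipogenesis and phase 2 lists and above them for ribosomal proteins, and overlap WT for cholesterol synthesis and ISR targets.

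Phase 2 enzymes attach glutathione, sugar or sulfate to drugs and toxins, many under the factor Nrf2. Among them, 1 of 33 tested members rose and 11 fell (3.03% and 33.3%, against 2.79% and 3.12% of all genes), with a median log2 change of -0.17 (without any 1 library, 0 to 1 rose and 8 to 12 fell), and 7 of the 11 falls kept their call with the block. The falls centred on glutathione transferases: Gstm2 went from 58.5, 58.3, 67.2 and 54.9 CPM in WT to 34.3, 31.03, 29.6 and 30.8 CPM in KO (log2 change -0.91 ± 0.09, adjusted p = 0.00044), and Gstm3 from 60.6, 60.5, 74.3 and 59.4 CPM to 35.9, 36.1, 29.9 and 29.9 CPM. Gstm3 changed by -0.94 ± 0.11 (log2, adjusted p = 0.0018). Gsta1 was at 9.16, 8.45, 4.88 and 5.79 CPM in WT and 2.86, 4.29, 1.77 and 1.93 CPM in KO. Gsta1 changed by -1.59 ± 0.29 (log2, adjusted p = 0.010). Gstm4, Gstt3 and Gstm1 fell less, with log2 changes of -0.51 ± 0.07, -0.50 ± 0.07 and -0.54 ± 0.08. Ephx1, an epoxide hydrolase, also fell (log2 change -0.48 ± 0.09). The other 4 falls, Gsta2 among them (blocked adjusted p = 0.058), were not called with the block. Gclc, the first enzyme of glutathione synthesis, was the member that rose (0.28 ± 0.06, blocked adjusted p = 0.076), a call lost without any 1 of WT 1, 2 or 3 (adjusted p from 0.053 to 0.056) and in the edgeR fit (adjusted p = 0.059). The glutathione transferases are close relatives, so reads shared among them make the split between members uncertain.

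Cytochromes P450 that oxidize drugs, in a list that also holds their reductase gene Por, went both ways: 6 of 24 tested members rose and 3 fell (25% and 12.5%, against 2.79% and 3.12% of all genes), with a median log2 change of 0.11 (without any 1 library, 4 to 8 rose and 3 to 4 fell). With the block 4 of the 6 rises and all 3 falls stayed called. Cyp2b10, which the receptor CAR induces, rose from 8.84, 7.87, 9.02 and 7.45 CPM to 15.03, 15.7, 24.2 and 24.95 CPM. Cyp2b10 changed by 1.28 ± 0.16 (log2, blocked adjusted p = 0.0039). Cyp2c29 was at 1034, 1022, 1039.9 and 989 CPM in WT and 1328, 1313, 1482 and 1605 CPM in KO (log2 change 0.50 ± 0.06, blocked adjusted p = 0.010), and Cyp3a11 and Cyp2c54 rose by 0.64 ± 0.11 and 0.61 ± 0.12, the call of Cyp2c54 being lost without any 1 of WT 1 or 2 or KO 8 (adjusted p from 0.051 to 0.063). Cyp2j5 and Cyp2c50 rose by 0.32 ± 0.06 and 0.34 ± 0.08 but not with the block (blocked adjusted p = 0.059 and 0.088), and the call of Cyp2j5 was lost without WT 3 (adjusted p = 0.052) and in the edgeR fit (adjusted p = 0.061), that of Cyp2c50 without any 1 of WT 1 or 2 or KO 7 or 8 (adjusted p from 0.063 to 0.100) and in the edgeR and TMM fits (adjusted p from 0.066 to 0.068). Cyp2a5 fell from 543, 528, 499 and 387 CPM to 269.6, 274, 312 and 327 CPM. Cyp2a5 changed by -0.67 ± 0.07 (log2, adjusted p = 0.00044). Por, the reductase that supplies electrons to all microsomal P450 enzymes, fell from 239.7, 235, 232 and 195 CPM to 131, 130.3, 171 and 163 CPM. Por changed by -0.57 ± 0.08 (log2, blocked adjusted p = 0.0064).

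Mouse liver expresses many genes by sex under the pulses of growth hormone, and called genes of both sexes' sets went in both directions. Of female-biased genes, 5 of 15 tested members rose and 2 fell (33.3% and 13.3%), with a median log2 change of 0.16 (without any 1 library, 3 to 5 rose and 1 to 2 fell). The rises were Hamp2, Cyp17a1 (1.09 ± 0.17), Abcd2 (1.17 ± 0.24), Cyp39a1 (0.97 ± 0.14) and Cyp2b9, of which Abcd2 lost its call without either WT 3 or KO 8 (adjusted p from 0.053 to 0.060). Cyp2c40, usually higher in females, fell from 5.17, 3.93, 10.4 and 8.33 CPM in WT to 0.730, 0.744, 0.454 and 0.583 CPM in KO (log2 change -3.71 ± 0.60, adjusted p = 0.0067, blocked adjusted p = 0.015), and its near copy Cyp2c69 fell too (log2 change -3.37 ± 0.77), though it lost its call without any 1 of WT 1, 2 or 3 or KO 7 or 8 (adjusted p from 0.052 to 0.085). Cyp2c40 reached 1 CPM only in the WT libraries, through which alone it passed the filter. Of male-biased genes, 3 of 31 tested members rose and 4 fell (9.68% and 12.9%), with a median log2 change of -0.03 (without any 1 library, 3 to 5 rose and 3 to 6 fell). Mup20, a major urinary protein known as darcin, rose from 835, 761, 676 and 661 CPM to 1248, 1172, 1008 and 1253 CPM. Mup20 changed by 0.69 ± 0.10 (log2, blocked adjusted p = 0.021).

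Cyp4a12b, a male-biased fatty acid hydroxylase, fell from 127, 118, 63.9 and 50.98 CPM to 32.9, 32.5, 22.6 and 29.7 CPM. Cyp4a12b changed by -1.53 ± 0.26 (log2, blocked adjusted p = 0.013). Its neighbour Cyp4a12a, with which it shares most of its sequence, was not called at 400.4, 376, 241 and 188 CPM in WT and 179, 184, 172 and 202 CPM in KO. Cyp4a12a differed by -0.60 ± 0.16 (log2, adjusted p = 0.058). Serpina12, which encodes the insulin-sensitizing protein vaspin, and Nudt7, an enzyme that degrades coenzyme A, fell with log2 changes of -1.44 ± 0.27 and -0.46 ± 0.07. Susd4 rose by 0.50 ± 0.08, and Ces4a fell without a block call (log2 change -0.65 ± 0.15, blocked adjusted p = 0.21), its call being lost without any 1 of WT 1, 2 or 3 or KO 5, 6, 7 or 8 (adjusted p from 0.053 to 0.093) and in the edgeR and unfiltered fits (adjusted p from 0.054 to 0.064).

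Among enzymes of the urea cycle and of amino acid breakdown, 2 of 45 tested members rose and 4 fell (4.44% and 8.89%, against 2.79% and 3.12% of all genes), with a median log2 change of -0.06 (without any 1 library, 1 to 2 rose and 3 to 4 fell). Prodh, proline dehydrogenase, fell from 169, 169.7, 187 and 161 CPM to 107, 112, 104 and 103 CPM. Prodh changed by -0.66 ± 0.07 (log2, adjusted p = 0.00098, blocked adjusted p = 0.0020). Tat, which degrades tyrosine, and Sds, which degrades serine, fell with log2 changes of -0.51 ± 0.08 and -0.62 ± 0.11. The aminotransferases Agxt2 and Agxt rose by 0.36 ± 0.06 and 0.47 ± 0.10, and Agxt lost its call without any 1 of WT 1 or 2 or KO 8 (adjusted p from 0.065 to 0.073). The hepatocytes of a liver lobule differ in expression from the portal to the central vein. Of pericentral genes, 1 of 25 tested members rose and 5 fell (4% and 20%), with a median log2 change of -0.09 (without any 1 library, 0 to 1 rose and 3 to 5 fell). With the block 0 rises and 3 falls stayed called. The falls were led by Cyp2a5, Gstm3, Slc13a3 (-0.86 ± 0.12) and the ammonia channel Rhbg (-0.85 ± 0.18, blocked adjusted p = 0.058), the last of which was not called without any 1 of WT 1 or 3 or KO 7 or 8 (adjusted p from 0.059 to 0.077) and in the edgeR fit (adjusted p = 0.052). Of periportal genes, 2 of 25 tested members rose and 2 fell (8% and 8%), with a median log2 change of 0.02. Cyp2f2 and Sds fell there (log2 change of Cyp2f2 -0.37 ± 0.06), and Cyp17a1 and Sox9 rose (0.36 ± 0.09 for Sox9, blocked adjusted p = 0.16), with the call of Sox9 lost without any 1 of WT 1, 2 or 3 or KO 5, 6, 7 or 8 (adjusted p from 0.059 to 0.13) and in the unfiltered fit (adjusted p = 0.088).

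**Figure D5:**
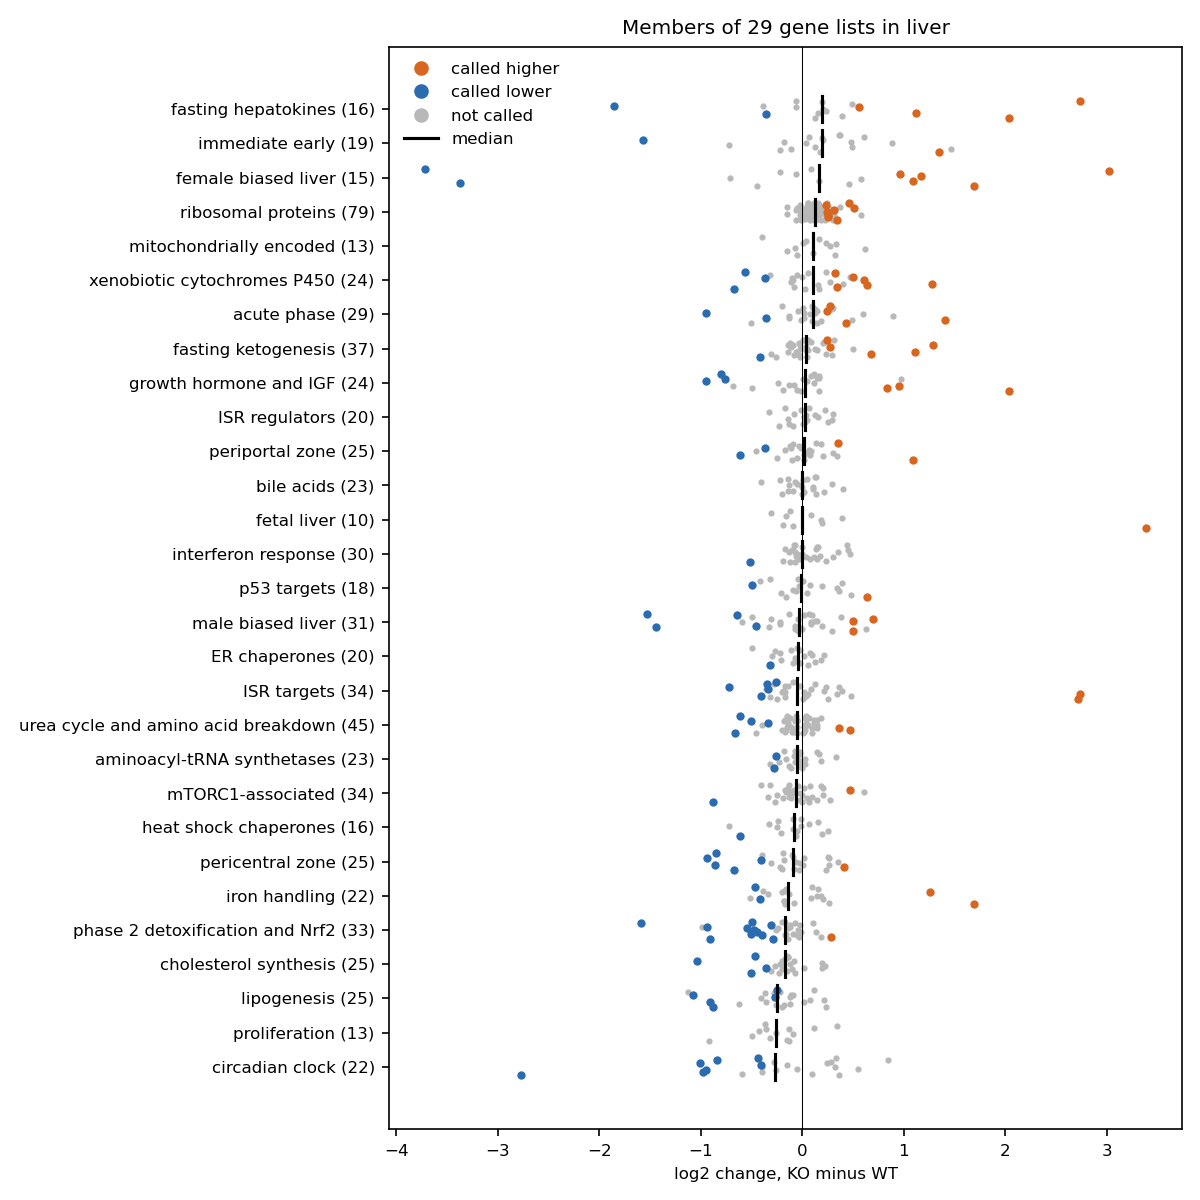
Log2 change, KO minus WT (horizontal axis), of each tested member of 29 gene lists, ordered by the list's median (black bar), with the number tested in parentheses, called rises in orange, called falls in blue and other members in grey. The clock, lipogenesis, cholesterol and phase 2 lists lie lowest among those with called members, and the ISR targets show 2 rises far from the rest of the list.

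Iron genes, of which 2 of 22 tested members rose and 2 fell (9.09% and 9.09%), with a median log2 change of -0.14, were led by Hamp2. Id1, a target of BMP signalling, rose from 4.46, 5.37, 3.67 and 2.37 CPM to 6.16, 9.31, 11.6 and 10.3 CPM (log2 change 1.26 ± 0.23, blocked adjusted p = 0.046), whereas Smad6, another BMP target, fell. Smad6 changed by -0.46 ± 0.09 (log2, blocked adjusted p = 0.095). Hepcidin itself (Hamp) was not called and differed between the neighbour pairs of each group, at 272, 270.2, 144 and 99.1 CPM in WT and 82.8, 76.5, 207 and 228 CPM in KO. Ftl1, the ferritin light chain, fell (log2 change -0.41 ± 0.08), a call lost without either WT 1 or 2 (adjusted p from 0.055 to 0.057). Among acute phase genes, 4 of 29 tested members rose and 2 fell (13.8% and 6.9%), with a median log2 change of 0.10 (without any 1 library, 1 to 4 rose and 0 to 1 fell). With the block 1 rise and 0 falls stayed called. The list's median level relative to the WT mean was 0.023 and -0.033 log2 units in KO 5 and 6. It was 0.22 and 0.28 in KO 7 and 8, against -0.033 to 0.024 in WT. Steap4, a metalloreductase, rose by 0.43 ± 0.05 and kept its call with the block. The fibrinogen chains Fgg and Fgb rose by 0.25 ± 0.05 and 0.27 ± 0.06, and the plasma protein gene Orm1 fell (log2 change -0.35 ± 0.08), none of them with the block (blocked adjusted p = 0.078, 0.085 and 0.11). The call of Fgg was lost without any 1 of WT 1, 2 or 3 or KO 7 or 8 (adjusted p from 0.058 to 0.083), that of Fgb without any 1 of WT 1, 2 or 3 or KO 5, 7 or 8 (adjusted p from 0.052 to 0.095) and that of Orm1 without any 1 of WT 1, 2 or 3 or KO 7 or 8 (adjusted p from 0.060 to 0.091).

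Among interferon-response genes, 0 of 30 tested members rose and 1 fell (3.33% of the list, against 3.12% of all genes), with a median log2 change of -0.0015. The fall was Oasl1 (-0.52 ± 0.11, blocked adjusted p = 0.16), a call lost without any 1 of WT 1, 2 or 3 or KO 8 (adjusted p from 0.053 to 0.068). Among p53 targets, 1 of 18 tested members rose and 1 fell (5.56% and 5.56%, against 2.79% and 3.12% of all genes), with a median log2 change of -0.01. Trp53inp1 rose from 44.6, 43.1, 51.3 and 49.4 CPM to 77.4, 79.2, 62.7 and 68.5 CPM (log2 change 0.64 ± 0.12, blocked adjusted p = 0.025) and Aen fell (-0.50 ± 0.12, blocked adjusted p = 0.12), the latter not called without any 1 of WT 1, 2 or 3 or KO 5, 7 or 8 (adjusted p from 0.051 to 0.11) and in the unfiltered fit (adjusted p = 0.072). Among genes tied to mTORC1, 1 of 34 tested members rose and 1 fell (2.94% and 2.94%, against 2.79% and 3.12% of all genes), with a median log2 change of -0.06. Srebf1 fell and Fnip1 rose (0.46 ± 0.11, blocked adjusted p = 0.11), and Fnip1 was not called without any 1 of WT 1, 2 or 3 or KO 5, 6 or 8 (adjusted p from 0.065 to 0.12) and in the unfiltered fit (adjusted p = 0.082). Among immediate early genes, 1 of 19 tested members rose and 1 fell (5.26% and 5.26%, against 2.79% and 3.12% of all genes), with a median log2 change of 0.19. Maff rose and Gadd45g fell, and without WT replicate 4 the list had 5 rises. The median level of these genes relative to the WT mean was 0.14 to 0.25 log2 units in the KO libraries, above the -0.065 to 0.050 of the WT libraries. Of 13 proliferation genes, 0 rose and 0 fell by limma, while edgeR called 0 and DESeq2 called 0. Of these 13, 4 had an unadjusted p under 0.05 (against 2981 of all 12816). Their median log2 change was -0.26, with 11 of the 13 below 0, and the median level relative to the WT mean was -0.33 in both KO replicates 7 and 8, against 0.024 and -0.056 in KO 5 and 6 and -0.11 to 0.12 in WT. Among fetal liver genes, 1 of 10 tested members rose and 0 fell (10% of the list, against 2.79% of all genes), with a median log2 change of -0.00050. Tff3, a secreted trefoil peptide, rose from 0.434, 0.291, 0.716 and 0.370 CPM to 2.35, 2.37, 4.67 and 4.63 CPM. Tff3 changed by 3.39 ± 0.54 (log2, adjusted p = 0.0061, blocked adjusted p = 0.027). It reached 1 CPM only in the KO libraries, through which alone it passed the filter.

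Markers of the cell types that liver tissue holds were read beside these changes. The marker sums of Kupffer cells (451 to 572 CPM in WT and 508 to 580.2 in KO) and of endothelial cells (610.2 to 727 CPM in WT and 617 to 817 in KO) overlapped between genotypes. Among stellate cell and fibroblast markers, 2 of 18 tested members rose and 5 fell (11.1% and 27.8%, against 2.79% and 3.12% of all genes), with a median log2 change of -0.10. The falls were the fibre genes Col1a1 (18.4, 17.6, 11.9 and 15.4 CPM in WT, 8.42, 7.44, 8.18 and 6.81 CPM in KO, log2 change -1.03 ± 0.15), Col1a2 (-0.68 ± 0.09), Col3a1 (-0.54 ± 0.08), Acta2 (-1.14 ± 0.19) and Tagln (-0.52 ± 0.13), of which all but Tagln (blocked adjusted p = 0.29) kept their call with the block and without any 1 library. Tagln lost its call without any 1 of WT 1, 2 or 3 or KO 5, 6, 7 or 8 (adjusted p from 0.053 to 0.13) and in the edgeR, DESeq2, TMM, filterByExpr and unfiltered fits (adjusted p from 0.057 to 0.098). Hgf and Rgs5, markers of the same cells, rose by 0.62 ± 0.11 and 0.42 ± 0.07. The sum over the 18 markers was 446 to 507 CPM in WT and 429 to 569 CPM in KO. Among Kupffer markers, 3 of 19 tested members rose and 0 fell (15.8% of the list, against 2.79% of all genes), with a median log2 change of 0.12, and 16 of the 19 lay above 0. The rises were Lyz2, Fcna and Mrc1. Among endothelial markers, 0 of 18 tested members rose and 1 fell (5.56% of the list, against 3.12% of all genes), with a median log2 change of 0.14, the fall being Vwf (blocked adjusted p = 0.085). Among hepatocyte markers, 2 of 16 tested members rose and 1 fell (12.5% and 6.25%, against 2.79% and 3.12% of all genes), with a median log2 change of 0.06. The rises were Apoa1 and Fgb and the fall Tat. Of these, Fcna lost its call without either WT 1 or 2 (adjusted p from 0.060 to 0.062), Mrc1 without any 1 of WT 1 or 2 or KO 5, 6, 7 or 8 (adjusted p from 0.058 to 0.14) and in the edgeR, TMM, filterByExpr and unfiltered fits (adjusted p from 0.055 to 0.096) and Apoa1 without any 1 of WT 1 or 2 or KO 7 or 8 (adjusted p from 0.060 to 0.11) and in the edgeR and TMM fits (adjusted p from 0.12 to 0.13). The blocked adjusted p was 0.16 for Mrc1 and 0.056 for Apoa1. Markers of pancreas and gut gave 1 rise of 2 tested, Cela1 (11.7, 11.1, 12.1 and 9.002 CPM in WT, 19.7, 19.4, 25.4 and 22.7 CPM in KO), with 10 or 11 of the 13 listed genes at or under 3 counts in each library. The 13 genes summed to 20.7 to 40.3 CPM in WT and 41.6 to 58.3 CPM in KO, so that every KO library lay above every WT library. T and natural killer cell markers gave 1 rise of 2, Cd4 (blocked adjusted p = 0.17), which was not called without any 1 of WT 1, 2, 3 or 4 or KO 5, 6 or 7 (adjusted p from 0.051 to 0.094) and in the unfiltered fit (adjusted p = 0.059). The 14 markers of T and natural killer cells summed to 5.33 to 6.25 CPM in WT and 8.06 to 9.40 CPM in KO. Cholangiocyte, B cell, neutrophil, erythroid and platelet markers had sums that overlapped between genotypes, and limma called 1 of them, Sox9. Of 5 tested B cell markers 2, and of 2 tested platelet markers 1, had an unadjusted p under 0.05 (against 2981 of all 12816 genes), and edgeR and DESeq2 each called 1 platelet marker. The part of cell mixture in the changes described was not tested.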

How the data were processed

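Liver RNA of WT and KO mice was sequenced as paired reads after ribosomal RNA depletion with a stranded total RNA kit. The authors aligned reads with STAR to mm10 and deposited expected counts per gene from RSEM with GENCODE M21 annotation (versions of the tools and the strand setting are not given in the sources used here). Between 12.7% and 15.2% of nonzero values were not whole numbers, within 0.001, since reads shared by several genes are divided among them, and near copies are therefore uncertain. Genes with at least 1 CPM in at least 4 of the 8 liver columns were kept. CPM and limma-voom used the expected counts without rounding, and counts were rounded to whole numbers for edgeR, DESeq2 and the chi-square per gene. Groups came from the labels.

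KO was compared with WT by limma-voom (limma 3.58.1, R 4.3.3) with quantile normalization, and p-values were adjusted by Benjamini-Hochberg over all 12816 genes. Named genes were Thumpd1, Nat10, Eif2ak4, Atf4, Ddit3 and Asns, 12 rises and 12 falls ranked by log2 change (called, averaging 1 log2 CPM or more, groups apart, predicted genes left out), and up to 4 called members of each list by adjusted p. Other list members named are described with their list. Some genes that this rule takes are counted but not reported here. Members and lists were chosen with earlier results of these data known, so list counts are descriptions without a test. Alternatives were edgeR 4.0.16, DESeq2 1.42.0, TMM, no filter, filterByExpr, quality weights, removal of structural noncoding RNA and each library left out. Fits that block, sum or leave out neighbouring libraries were added after seeing the data. The fit was tested on simulated data. Promoters are from RefSeq (GRCm38.p6).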

Additional observations from a re-analysis of the deposited data

Results flagged for a closer look

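Single libraries that lay far from the other 3 of their group (Dixon's test at the 95% level) were found in 12 of the 190 groups of values examined, where chance gives about 1 in 20. In 8 of the 12 the library was WT replicate 4. In it, Gm42418 took 9.33% of the counts, against 0.834% to 1.16% in the other WT libraries, and Xist was at 2.59 CPM, against 0.0324 to 0.124 CPM. Structural noncoding RNAs took 31.0% of its counts, against 17.5% to 23.1% in the other WT libraries, which lowers the CPM of other genes in it.

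Lower in WT replicate 4 than in the other WT libraries were Por (195 CPM, against 232 to 239.7 CPM), Cyp2f2 (759 CPM, against 997 to 1029.6 CPM), Nr1d1 (84.6 CPM, against 104 to 105 CPM), Fgb (1641 CPM, against 1843 to 1876 CPM) and Oasl1 (9.78 CPM, against 13.4 to 14.1 CPM). Smad6 was higher there, at 15.7 CPM against 14.684 to 14.731 CPM. Gstm3 was higher in WT replicate 3, at 74.3 CPM against 59.4 to 60.6 CPM. In KO replicate 5, Atf4 was higher at 82.1 CPM against 76.2 to 76.9 CPM, Fgf21 was lower at 1.35 CPM against 2.38 to 2.48 CPM, and Rpl15 was lower at 107 CPM against 117.1 to 117.6 CPM. Leaving these libraries out kept Por, Cyp2f2, Nr1d1, Smad6, Gstm3 and Fgf21 called, and also kept Fgb and Oasl1 without WT replicate 4 and Rpl15 without KO replicate 5.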

How the results depend on the processing

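The count of 757 called genes (357 higher, 400 lower) changed by over 1.5 times under some settings. DESeq2 called 1408 (664 higher, 744 lower) and quality weights 1705 (819 and 886). Without a filter on low counts, 232 genes were higher. Leaving out 1 library gave 292 to 798 called genes, 133 to 354 higher and 159 to 444 lower. Of the settings chosen after seeing the data, neighbouring libraries as a block gave 274 (134 and 140), summed neighbours 10 (3 and 7) by limma and 12 (3 and 9) by edgeR, WT replicates 1 and 2 left out 169 (76 and 93), and KO replicates 7 and 8 left out 1409 (744 and 665). The 1622 genes whose groups did not overlap in CPM became 2107 when structural noncoding RNA was removed and all 8 libraries were kept. With 1 library left out there were 1857 to 3074, most without WT replicate 4, where the rule also has fewer samples to clear. The cause of these shifts was not tested. Not called by limma and of no stable sign were Eif2ak4 (-0.037 with quality weights, -0.047 to 0.074 with 1 library left out, below 0 without WT replicate 4 or KO replicate 6, -0.063 without WT replicates 3 and 4) and Atf4 (-0.024 with TMM, -0.057 by edgeR, -0.052 by DESeq2, -0.17 with quality weights, -0.097 to 0.13 with 1 library left out, below 0 without WT replicate 3, WT replicate 4 or KO replicate 5, -0.056 with summed neighbours by edgeR, -0.32 without WT replicates 3 and 4, and -0.051 without KO replicates 5 and 6). For the 88 called genes named by rule, 1539 of the refitted values kept their call and direction and 397 kept the direction only. No paired analysis was possible because the WT and KO libraries carry different replicate numbers. Depth limits Fgf21 and Tff3, which lay under 1 CPM in WT, and Cyp2c40 and Lrtm1, which lay under 1 CPM in KO. These genes, like Thumpd1, passed the filter only through their other group.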

Other observations

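Genes outside the lists, chosen after their values were seen, are given here as values. Lrtm1, a leucine-rich repeat transmembrane gene, fell from 3.07, 3.21, 3.45 and 3.11 CPM in WT to 0.251, 0.441, 0.581 and 0.694 CPM in KO. Lrtm1 changed by -2.71 ± 0.21 (log2, SE, limma adjusted p = 0.00014, lower in all 4 KO libraries than in any WT library). It reached 1 CPM only in the WT libraries, through which alone it passed the filter. Sult5a1, a sulfotransferase gene, fell from 12.4, 11.1, 13.3 and 9.89 CPM to 4.76, 4.57, 4.67 and 5.02 CPM. Sult5a1 changed by -1.32 ± 0.11 (log2, limma adjusted p = 0.00031). Both were also called when the counts of neighbouring libraries were summed.

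Among the rises, Adrb3, a beta adrenergic receptor gene, was at 8.000, 7.19, 7.28 and 6.96 CPM in WT and 15.03, 15.2, 20.7 and 21.5 CPM in KO. Adrb3 changed by 1.31 ± 0.12 (log2, limma adjusted p = 0.00035). Crot, which passes fatty acyl groups from peroxisomes to carnitine, rose from 484, 479, 429 and 416 CPM to 622, 626, 698 and 761 CPM. Crot changed by 0.61 ± 0.06 (log2, limma adjusted p = 0.00035). Elovl2, an elongase of long polyunsaturated fatty acids, rose by 0.44 ± 0.05 and the interferon-induced GTPase gene Iigp1 rose by 0.78 ± 0.08 (limma adjusted p = 0.0012 and 0.00044). All 6 genes of these paragraphs were called with neighbouring libraries as a block and when any 1 library was left out.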
